A study of Mus musculus with 9 samples.

Results

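Toll-like receptors, the lipopolysaccharide co-receptor Cd14 and the adaptor Myd88 were followed in 5 splenic lymphomas of Sca1-MALT1 transgenic mice and 4 spleens of healthy wild-type mice. The 10 genes were Tlr1, Tlr2, Tlr3, Tlr4, Tlr7, Tlr8, Tlr9, Tlr13, Cd14 and Myd88, and every probe set whose platform symbol was exactly one of these names was taken, which gave 16 of 45037 non-control probe sets on the array. All 10 genes had at least 1 probe set, among 18193 genes in all. RNA came from frozen spleen tissue, with 1 Affymetrix array per sample, and values are log2 levels as deposited after RMA, a procedure that normalizes arrays against each other and sums up the probes of a probe set. Sca1 is the stem cell antigen whose promoter is used to express a transgene in blood stem and progenitor cells, and MALT1 is the protease and scaffold that links antigen receptors to NF-kB. The labels give no strain, age or sex, and they number the samples without saying that each came from its own animal, so a p-value here speaks only of the spread among these 9 arrays.

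Toll-like receptors are membrane receptors that sense microbial products through leucine-rich repeats and signal through an intracellular TIR domain. Tlr1, Tlr2 and Tlr4 act at the cell surface, where they read lipoproteins and, with Cd14 and Ly96, lipopolysaccharide, whereas Tlr3, Tlr7, Tlr8, Tlr9 and Tlr13 read nucleic acids in endosomes. Except for Tlr3, which uses the adaptor TRIF (gene Ticam1), these receptors signal through MyD88, which recruits IRAK kinases and leads to NF-kB and IRF factors. In the spleen, macrophages, monocytes, neutrophils, dendritic cells and B cells all carry such receptors, each in its own combination.

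Of the 10 genes, Cd14 rose in lymphoma and the other 9 did not pass limma's test (Benjamini-Hochberg adjusted p under 0.05 over all 18193 genes). That is 1 of 10, where 0.715% of all genes were called. At an unadjusted p under 0.05 limma had 5 of the 10 genes, where 14.7% of all genes reached that value. Cd14, Tlr13 and Tlr2 had higher levels in lymphoma (6.69% of all genes), and Tlr3 and Tlr7 had lower ones (8%). The 2 groups did not overlap for 4 of the 10 genes, against 7.33% of all genes. These were Cd14, Tlr13 and Tlr2 on the higher side (3.29% of all genes) and Tlr7 on the lower side (4.04%). Differences were positive for 7 of the 10 genes and for 50.3% of all genes. The median log2 difference of the 10 genes was 0.13, beside 0.0012 over all genes. All differences are lymphoma minus wild-type. In tissue RNA, fewer cells of a type and less RNA per cell cannot be told apart.

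Lymphomas 1 and 2 stood apart. Over the 18193 genes, each by its brightest probe set, they correlated at 0.958 to 0.979 with the wild-type arrays. The other 3 lymphomas correlated at 0.983 to 0.991. Among the wild-type spleens, 1 and 2 correlated at 0.99706 and 3 and 4 at 0.99651, against 0.99373 to 0.99455 across them. In Cd14, Tlr1, Tlr6 and Pik3ap1, given below, wild-type spleens 1 and 2 also stood apart from 3 and 4. In lymphomas 1 and 2 the mean log2 level of erythroid markers was 11.16 and 10.92, against 6.57 to 8.54 in the other lymphomas and 7.21 to 8.65 in wild-type spleen. Array weights, which limma sets by how far an array lies from its group, gave them the lowest values, 0.352 and 0.405. Results are therefore also given without this pair where that changes them. The 18S ribosomal RNA control was higher in most lymphomas, at 11.78 to 13.26, against 11.50 to 11.80 in wild-type spleen, with lymphoma 3 within the wild-type range, and it was tried as a covariate.

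**Figure D1:**
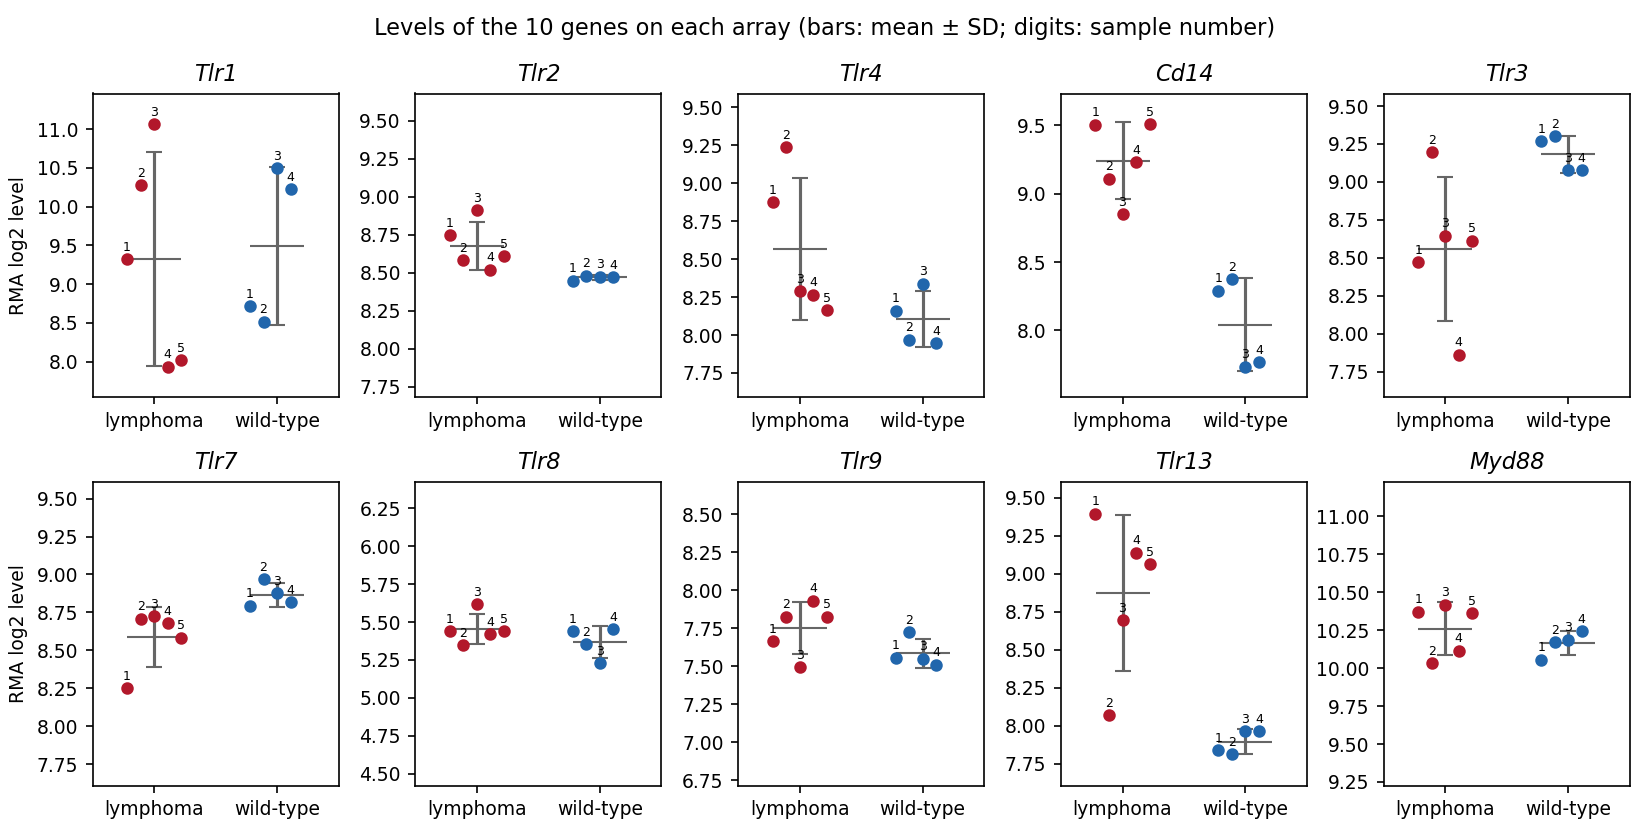
RMA log2 level of each of the 10 genes on each array, lymphomas in red at the left of each panel and wild-type spleens in blue at the right, with the mean ± SD of each group as bars and the sample number as a digit; each panel has its own axis of at least 2 log2 units. Every lymphoma stands above every wild-type spleen for Cd14, Tlr13 and, narrowly, Tlr2, and narrowly below every one for Tlr7. Tlr1 spreads widely within both groups.

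Cd14 is the surface and soluble protein that hands lipopolysaccharide to the Tlr4 complex, and it is a classic marker of monocytes and macrophages. Its level was 9.50, 9.11, 8.85, 9.23 and 9.51 in lymphomas 1 to 5, against 8.29, 8.37, 7.73 and 7.77 in wild-type spleens 1 to 4. The lowest lymphoma lay above the highest wild-type spleen. Cd14 averaged 9.24 ± 0.28 in lymphoma (SD, n = 5) and 8.04 ± 0.34 in wild-type spleen (SD, n = 4), a log2 difference of 1.20 with a 95% interval of 0.78 to 1.61, or 2.30-fold (limma adjusted p 0.0274). The call rests on few arrays. It was lost without lymphoma 5 (limma adjusted p 0.0702) and without wild-type spleen 1 (0.068), 2 (0.085), 3 (0.12) or 4 (0.103), while the difference stayed between 1.10 and 1.31 with any 1 array left out. With the 18S level as a covariate the difference was 1.16 and was not called (limma adjusted p 0.122). The 2 genes with the most similar profile over the 9 arrays were Fblim1 (Pearson r 0.97, Spearman rho 0.95), a focal adhesion adaptor, and Igfbp2 (r 0.97, rho 0.97), which binds insulin-like growth factors. These values are a description, and since the groups stand apart for Cd14 they carry the group difference itself.

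Cd14 marks monocytes and macrophages, and the markers of these cells did not all go one way. Of 10 measured macrophage marker genes 3 rose (C1qa, Cd68 and Vcam1), where 0.407% of all genes were called higher, 1 fell (Marco, -1.64), where 0.308% were called lower, and 6 did not pass. The mean log2 level of the list lay between 9.94 and 10.56 in the lymphomas, against 9.30 to 9.60 in the wild-type spleens. Monocyte markers, of which limma called 0 of 7, with 3 on the higher side at an unadjusted p under 0.05 (6.69% of all genes), ranged in their mean from 10.48 to 11.47 in lymphoma and from 10.29 to 10.42 in wild-type spleen. Neutrophil markers (0 of 8 called, 5 on the higher side at an unadjusted p under 0.05) ranged in their mean from 7.40 to 12.26 in lymphoma and from 7.16 to 7.84 in wild-type spleen. Their part in the Cd14 difference was not tested. B-cell markers, the lineage of MALT lymphoma, were present, and their list mean was lower in every lymphoma, at 10.81 to 11.94 against 12.13 to 12.24 in wild-type spleen. Limma called 0 of these 9 genes, and 4 of them had an unadjusted p under 0.05, all on the lower side (8% of all genes). Single genes went otherwise: Ms4a1 and Cd79a stood at 14.17 and 11.92 in lymphoma 2, above every wild-type spleen (up to 13.90 and 11.40). Dendritic cell markers, with 0 of 9 called by limma and 4 on the lower side at an unadjusted p under 0.05, ranged in their mean from 7.78 to 8.36 in lymphoma and from 8.35 to 8.45 in wild-type spleen.

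Tlr4, the receptor that Cd14 serves, had 4 probe sets. The one that stands for the gene, with the highest mean, read 8.88, 9.24, 8.29, 8.27 and 8.16 in lymphomas 1 to 5, against 8.16, 7.97, 8.34 and 7.95 in wild-type spleens 1 to 4. Lymphomas 1 and 2 were above all wild-type spleens and the other 3 lay within their range. Its log2 difference was 0.46 (95% interval -0.036 to 0.96, limma adjusted p 0.375). Without lymphoma 2 it was 0.29, without lymphomas 1 and 2 together 0.13, and with the 18S level as a covariate 0.060. On 1418163_at it read 7.75, 7.86, 7.54, 7.32 and 7.38 in lymphomas 1 to 5, against 7.17, 6.89, 7.16 and 6.81 in wild-type spleens 1 to 4, a log2 difference of 0.56. On 1442827_at it read 6.05, 6.02, 5.64, 5.57 and 5.73 in lymphomas 1 to 5, against 5.36, 5.34, 5.21 and 5.33 in wild-type spleens 1 to 4, a log2 difference of 0.49. On both of them all lymphomas stood above all wild-type spleens, and neither was called, though with the Gapdh ratio of each array (3' over 5' probe sets) as a covariate 1442827_at was (0.53, limma adjusted p 0.0382). That probe set was dim, in the lowest 28.4% of probe sets by mean level, and a filter on dim probe sets removed it. Over the 10 genes, the groups did not overlap on 6 of the 16 probe sets, against 6.47% of all probe sets. Over all 45037 probe sets, of which 0.486% were called, the limma adjusted p was 0.11 for 1418163_at and 0.104 for 1442827_at. The remaining probe set, 1430695_at, lay near the bottom of the scale, between 3.67 and 3.89 in lymphoma and between 3.69 and 3.88 in wild-type spleen, with a log2 difference of 0.0034.

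Tlr2 pairs with Tlr1 or Tlr6 to sense bacterial lipoproteins. It read 8.75, 8.58, 8.91, 8.52 and 8.61 in lymphomas 1 to 5, against 8.45, 8.48, 8.47 and 8.47 in wild-type spleens 1 to 4. The groups did not overlap, and the wild-type values were almost the same, with an SD of 0.014 (n = 4) beside 0.16 in lymphoma (n = 5). The log2 difference was 0.21 (95% interval 0.0081 to 0.40), and limma did not call it (adjusted p 0.32).

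Tlr1 showed the widest spread of the 10 genes, and its groups overlapped. Its level was 9.33, 10.27, 11.07, 7.93 and 8.02 in lymphomas 1 to 5, against 8.72, 8.52, 10.50 and 10.22 in wild-type spleens 1 to 4. Wild-type spleens 3 and 4 stood over 1 log2 unit above wild-type spleens 1 and 2, and the lymphomas spread from below the lowest to above the highest wild-type spleen. The SD within groups was 1.23, wider than for all but 118 of the 18193 genes, where the median gene had 0.172. The log2 difference of -0.16 had an interval of -1.76 to 1.43 (limma adjusted p 0.938), an interval that reaches past 2-fold in both directions. Its sign turned without lymphoma 4 (0.18), lymphoma 5 (0.16), wild-type spleen 3 (0.17) or wild-type spleen 4 (0.080).

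Tlr6, a neighbour of Tlr1 on the chromosome and the other partner of Tlr2, ran the opposite way over the same arrays. It was looked at beside Tlr1 after both had been seen. Tlr6 read 8.23, 8.28, 8.21, 8.98 and 8.89 in lymphomas 1 to 5, against 8.71, 8.67, 8.33 and 8.28 in wild-type spleens 1 to 4. Lymphomas 4 and 5, the lowest of the 9 arrays in Tlr1, were the highest in Tlr6, and lymphoma 3, the highest in Tlr1, was the lowest in Tlr6. Wild-type spleens 1 and 2 had less Tlr1 and more Tlr6 than wild-type spleens 3 and 4. The mean difference of Tlr6 was 0.023 (limma adjusted p 0.972).

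**Figure D2:**
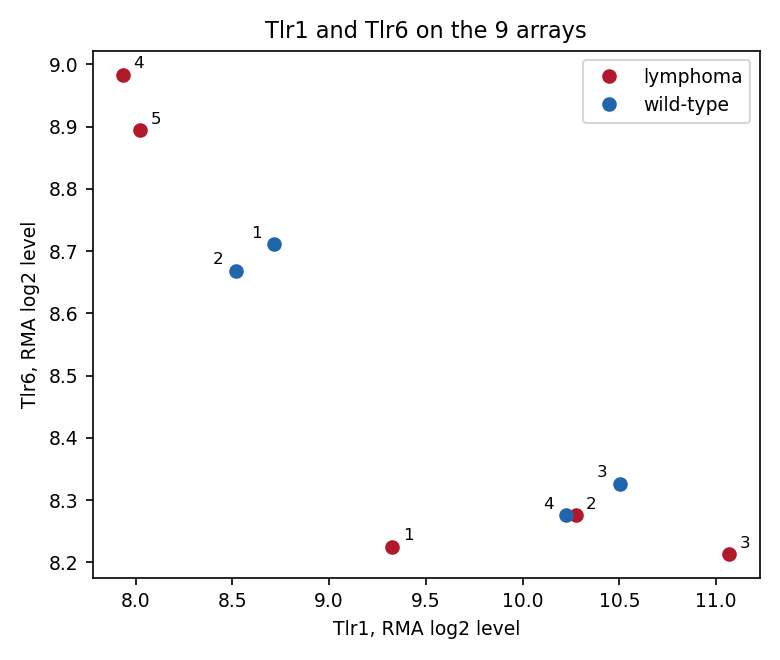
Tlr1 level (horizontal) against Tlr6 level (vertical), both as RMA log2 values, on each of the 9 arrays, with lymphomas in red, wild-type spleens in blue and the sample number as a digit. Lymphomas 4 and 5 and wild-type spleens 1 and 2 lie at the upper left with low Tlr1 and high Tlr6, and the other 5 arrays lie along the bottom.

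Among the endosomal receptors Tlr13, which reads bacterial ribosomal RNA in mice, had the largest difference. It read 9.40, 8.07, 8.69, 9.14 and 9.06 in lymphomas 1 to 5, against 7.84, 7.81, 7.96 and 7.96 in wild-type spleens 1 to 4. All 5 lymphomas were above all 4 wild-type spleens, with lymphoma 2 only just above. The log2 difference was 0.98 (SE 0.23, 1.97-fold), and limma did not call it (adjusted p 0.0982). Without lymphoma 2 it was 1.18 and passed (limma adjusted p 0.00779), and without lymphomas 1 and 2 together it was 1.07 and passed (0.00435). With array weights it was 1.02 and also passed (0.01). The range of the limma adjusted p over all 24 alternatives was 0.00435 to 0.291. The mean levels of the macrophage and monocyte lists, though not of each marker in them, were higher in the same 5 lymphomas, as given above, and their part in this difference was not tested.

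Tlr3, the receptor for double-stranded RNA, stood lower in lymphoma on both of its probe sets without passing. The higher one read 8.47, 9.20, 8.65, 7.86 and 8.61 in lymphomas 1 to 5, against 9.27, 9.30, 9.08 and 9.08 in wild-type spleens 1 to 4. Lymphoma 2 lay within the wild-type range, and the other 4 lymphomas lay below it. The log2 difference was -0.62 (95% interval -1.12 to -0.13, limma adjusted p 0.238), and with the 18S level as a covariate it was -1.0035 (0.141). On the other probe set, 1422781_at, the difference was -0.58, and lymphoma 2 (7.53) lay above all wild-type spleens (6.98 to 7.35).

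Tlr7, the receptor for single-stranded RNA, had 3 probe sets, all with a lower mean in lymphoma. On the one that stands for the gene it read 8.25, 8.71, 8.72, 8.68 and 8.58 in lymphomas 1 to 5, against 8.80, 8.97, 8.88 and 8.82 in wild-type spleens 1 to 4. The groups did not overlap, but the gap between them was small and the log2 difference of -0.27 did not pass (95% interval -0.51 to -0.036, limma adjusted p 0.276). The other probe sets differed by -0.11 and -0.23 with overlapping groups.

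Tlr9, which senses unmethylated CpG DNA and is prominent in B cells and plasmacytoid dendritic cells, read 7.67, 7.83, 7.49, 7.93 and 7.83 in lymphomas 1 to 5, against 7.56, 7.72, 7.55 and 7.51 in wild-type spleens 1 to 4. The groups overlapped, and the log2 difference of 0.16 had an interval of -0.059 to 0.39 (limma adjusted p 0.489). Tlr8, a close relative of Tlr7, was dim, in the lowest 17.9% of genes by mean level, and its levels overlapped. It lay between 5.35 and 5.62 in lymphoma and between 5.23 and 5.45 in wild-type spleen, a log2 difference of 0.084 (limma adjusted p 0.674). With the 18S level as a covariate the differences were 0.079 for Tlr9 and 0.18 for Tlr8, and without lymphoma 3 or wild-type spleen 3 that of Tlr8 was 0.043 or 0.037.

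Tlr7, Tlr8 and Tlr13 are X-linked. Xist, the RNA of the inactive X chromosome, stood at 7.92 and 7.15 in lymphomas 3 and 5, against 13.69 to 13.91 in the other 3 lymphomas and all wild-type spleens. Low Xist was thus found in lymphomas alone, and the 2 groups were not balanced for it. The labels give no sex, and its part in the differences between the groups was not tested. Without lymphomas 3 and 5 together, an alternative added after the data were seen, the log2 difference was 0.97 for Tlr13, -0.32 for Tlr7 and 0.034 for Tlr8. Cd14, which is not X-linked, differed by 1.24 on those arrays and was not called (limma adjusted p 0.0588).

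Myd88, the adaptor shared by these receptors other than Tlr3 and by the IL-1 and IL-18 receptors, had 1 probe set. It read 10.37, 10.03, 10.42, 10.12 and 10.36 in lymphomas 1 to 5, against 10.06, 10.17, 10.19 and 10.24 in wild-type spleens 1 to 4. Lymphoma 2 lay just below the wild-type range, lymphoma 4 within it and the other 3 lymphomas above it. The log2 difference was 0.096 with an interval of -0.12 to 0.32 (limma adjusted p 0.694), so a change of 1 log2 unit in either direction lies outside the interval. It was 0.15 without lymphoma 2, 0.057 without lymphoma 3, 0.060 without wild-type spleen 1, 0.0097 without lymphomas 3 and 5, 0.15 with array weights and 0.24 with the 18S level as a covariate, and was called in none of them.

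**Figure D3:**
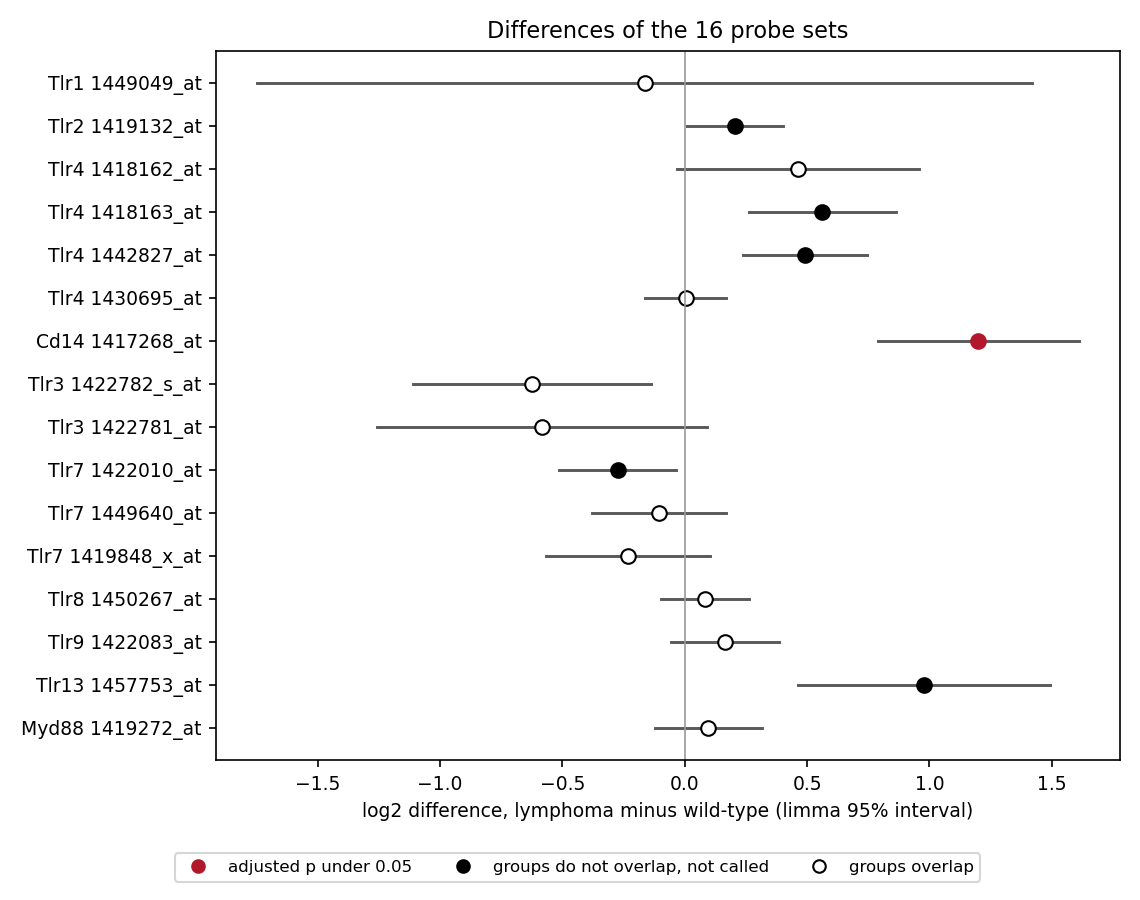
Log2 difference (lymphoma minus wild-type) of each of the 16 probe sets with limma's 95% interval; the red point passed at an adjusted p under 0.05 over all 45037 probe sets, black points have groups that do not overlap, and open points have overlapping groups. The Cd14 probe set is the one that passed, and the Tlr1 interval is the widest.

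Promoter windows are shown for 4 receptors, Tlr13 with the largest difference among the receptors, Tlr3 with the largest negative one, Tlr2 with non-overlapping groups, and Tlr1 with the wide spread. RefSeq windows of GRCm38.p6, from 250 bases before to 50 after a transcript start, were at hand for 7 of the 10 genes, in 8 windows. They were searched on both strands for an NF-kB motif (GGNNTTNCC), a PU.1 motif (GAGGAAG) and the core of the interferon-stimulated response element (GAAANNGAA). NF-kB lies downstream of these receptors, PU.1 is a factor of myeloid and B cells, and IRF factors bind the response element. The capitals mark the matches found.
Tlr13, chrX:106143025-106143324, plus strand: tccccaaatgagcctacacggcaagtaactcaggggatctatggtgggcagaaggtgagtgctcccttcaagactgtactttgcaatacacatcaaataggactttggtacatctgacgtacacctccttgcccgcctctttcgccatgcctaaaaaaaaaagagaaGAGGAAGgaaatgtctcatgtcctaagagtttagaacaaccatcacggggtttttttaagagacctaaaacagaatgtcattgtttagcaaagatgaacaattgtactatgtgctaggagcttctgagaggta
Tlr3, chr8:45410331-45410630, minus strand: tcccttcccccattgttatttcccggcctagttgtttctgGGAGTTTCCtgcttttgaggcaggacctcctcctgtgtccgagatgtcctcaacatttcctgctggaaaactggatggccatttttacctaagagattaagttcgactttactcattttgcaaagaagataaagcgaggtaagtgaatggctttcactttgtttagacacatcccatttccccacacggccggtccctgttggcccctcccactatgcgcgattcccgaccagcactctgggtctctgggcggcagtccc
Tlr2, chr3:83841559-83841858, minus strand: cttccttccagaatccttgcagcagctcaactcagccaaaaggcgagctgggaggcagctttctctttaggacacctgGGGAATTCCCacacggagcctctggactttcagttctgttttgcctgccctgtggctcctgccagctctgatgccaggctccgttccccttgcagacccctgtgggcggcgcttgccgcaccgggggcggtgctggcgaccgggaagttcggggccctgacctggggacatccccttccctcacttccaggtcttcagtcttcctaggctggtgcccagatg
Tlr1, chr5:64933509-64933808, minus strand: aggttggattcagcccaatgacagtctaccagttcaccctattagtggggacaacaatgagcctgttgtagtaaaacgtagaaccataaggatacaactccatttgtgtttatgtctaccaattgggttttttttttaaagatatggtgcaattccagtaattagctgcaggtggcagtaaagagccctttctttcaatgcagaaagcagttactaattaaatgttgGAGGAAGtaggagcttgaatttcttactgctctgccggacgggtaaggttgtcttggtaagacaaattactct
The NF-kB motif was found in 3 of the 8 windows, and 16% of all 32851 RefSeq promoter windows of that length hold it. These were the windows of Tlr3, with a match that begins 210 bases before the start, of Tlr2, with 2 overlapping matches on opposite strands upstream of the start, and of Myd88. The levels of Tlr2 and Tlr3 differed in opposite directions in lymphoma, and neither passed. The PU.1 motif was found in 3 windows, those of Tlr13 (83 bases before the start), of Tlr9 and of Tlr1 as printed (23 bases before it), where 13.6% of all windows hold it. Tlr1 had another window, chr5:64932650-64932949, which held none of the 3 motifs and is not printed. The response element core was found in 2 windows, those of Tlr8 and Myd88, where 8.56% of all windows hold it. A match is a description of the letters and not evidence of binding. Because 2 of the motifs were shortened after a first search, the counts beside the shares of all windows are a description too.

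The rest of the pathway was read from 9 lists with 98 genes, of which 90 were measured. Limma called 3 of the 90, or 3.33%, all higher in lymphoma (Slc11a1, Ctsb and Axl), where 0.407% of all genes were called higher. The lists were drawn up with earlier results of these data known, among them the rise of Axl. All 3 were higher in all lymphomas, as were the mean levels of the macrophage and monocyte marker lists given above, though not each of their markers, and the part of these cells in the differences was not tested.

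Chaperone, transport and protease genes of the endosomal pathway, not all of them specific to Toll-like receptors, were measured for 11 of 11. Of these 2 rose and 9 did not pass, with a list median of 0.25. Slc11a1 (Nramp1), a metal ion transporter of the phagosome in macrophages, read 9.60, 9.07, 9.27, 9.94 and 9.57 in lymphomas 1 to 5, against 8.33, 8.36, 8.59 and 8.53 in wild-type spleens 1 to 4, a log2 difference of 1.04 (SE 0.16, limma adjusted p 0.0287). Ctsb, the lysosomal protease cathepsin B, read 13.96, 13.94, 13.74, 13.78 and 13.69 in lymphomas 1 to 5, against 13.29, 13.11, 13.16 and 13.29 in wild-type spleens 1 to 4, a log2 difference of 0.61 (SE 0.084, limma adjusted p 0.0217). For both genes all lymphomas lay above all wild-type spleens. Both calls were lost without wild-type spleen 1, 2, 3 or 4 (limma adjusted p 0.119, 0.129, 0.112 and 0.0987 for Slc11a1, and 0.0598, 0.0968, 0.106 and 0.0647 for Ctsb), and that of Slc11a1 also without lymphoma 5 (0.0715) and without lymphomas 3 and 5 together (0.0815). Both were lost too with the 18S level as a covariate (limma adjusted p 0.0564 for Slc11a1 and 0.104 for Ctsb) and by an unequal-variance test (adjusted p 0.174 and 0.077). Unc93b1, the chaperone that carries nucleic acid receptors to the endosome, differed by -0.14 (limma adjusted p 0.611).

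Co-receptors and adaptors did not pass. Limma called 0 of 5 co-receptors, with the lipopolysaccharide binding protein gene Lbp at 0.67 and the scavenger receptor gene Cd36 at -0.60. At an unadjusted p under 0.05 were Ly96 on the higher side (6.69% of all genes) and Cd36 on the lower side (8%). Lbp stood at 8.13 in lymphoma 1 and between 6.18 and 6.80 in the other lymphomas, against 5.87 to 6.26 in wild-type spleen. Of the 4 adaptors limma called 0, and 1 was higher at an unadjusted p under 0.05 (6.69% of all genes). The phosphoinositide 3-kinase adaptor gene Pik3ap1 stood at 0.53, and Tirap, the bridge between Tlr2 or Tlr4 and MyD88, at 0.31. Pik3ap1 spread about as widely as Tlr1, at 11.41, 9.24, 11.82, 12.33 and 11.90 in lymphomas 1 to 5, against 11.89, 12.08, 9.71 and 9.56 in wild-type spleens 1 to 4. Its high and low wild-type spleens were those with low and high Tlr1. Lymphomas 2, 4 and 5 also ran opposite in the 2 genes. Lymphoma 1 had a middle Tlr1 level (9.33), and lymphoma 3 was high in both, with the highest Tlr1 of all arrays (11.07).

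Signalling genes downstream of the adaptors did not pass. Among 16 kinases and ubiquitin enzymes 11 had negative differences, limma called 0, and at an unadjusted p under 0.05 there were 4 on the lower (8% of all genes) and 1 on the higher side (6.69%). The largest differences were those of the IRF3 kinase gene Ikbke (-0.49, limma adjusted p 0.144) and the ubiquitin ligase gene Peli1 (-0.42, 0.329). Among 9 transcription factors 1 had a positive difference, where 50.3% of all genes had one, limma called 0, and 4 of the negative ones had an unadjusted p under 0.05, where 8% of all genes did on that side. The NF-kB subunit gene Rel stood at -0.54 (limma adjusted p 0.17) and Irf5, which acts downstream of MyD88, at -0.41 (0.301). The mean log2 level of the 9 genes was lower in all 5 lymphomas, at 10.07 to 10.32, than in all 4 wild-type spleens, at 10.39 to 10.58. The mean of the B-cell marker list, though not each marker, was lower in the same arrays, as given above, and its part was not tested.

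Inhibitors had a list median of 0.049, and 11 of the 14 measured had positive differences, where 50.3% of all genes had one. Of the 14 genes 1 rose and 13 did not pass. At an unadjusted p under 0.05 there were 3 on the higher side (6.69% of all genes) and 0 on the lower side (8%). Axl, a receptor tyrosine kinase that dampens Toll-like receptor signals and binds dying cells, read 9.77, 9.17, 9.65, 9.49 and 9.50 in lymphomas 1 to 5, against 8.62, 8.58, 8.82 and 8.91 in wild-type spleens 1 to 4. All lymphomas lay above all wild-type spleens, with a log2 difference of 0.78 (SE 0.13, limma adjusted p 0.035). The call was lost without lymphoma 4 (limma adjusted p 0.0538) or 5 (0.0756) and without wild-type spleen 1 (0.129), 2 (0.147), 3 (0.12) or 4 (0.0879), without lymphomas 3 and 5 together (0.109) and by an unequal-variance test (adjusted p 0.153). With the mean of its probe sets in place of the brightest, Axl differed by 0.32 (limma adjusted p 0.0914).

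Genes that Toll-like receptors induce did not pass. Limma called 0 of 22, with 6 on the higher side (6.69% of all genes) and 1 on the lower side (8%) at an unadjusted p under 0.05. It called 1 without lymphoma 1 or 4, 2 without lymphoma 2, without lymphomas 1 and 2 together or with array weights, and 3 with the Gapdh ratio as a covariate. Of the 22 genes 16 had positive differences, with a list median of 0.27. Il10, the anti-inflammatory cytokine, read 8.12, 6.38, 7.45, 6.29 and 6.88 in lymphomas 1 to 5, against 5.38, 5.21, 5.31 and 5.49 in wild-type spleens 1 to 4. All 5 lymphomas were above all wild-type spleens, with a log2 difference of 1.68 (SE 0.34, limma adjusted p 0.0637). Saa3, an acute phase gene, stood at 12.68 in lymphoma 1 and between 6.80 and 6.94 in the other lymphomas, against 6.59 to 6.72 in wild-type spleen, with a mean log2 difference of 1.38 (limma adjusted p 0.616).

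Genes of the IL-1 receptor family and the other Toll-like receptors gave no call either. Of the 6 IL-1 family genes limma called 0, and 1 without lymphoma 2. At an unadjusted p under 0.05 there were 2 on the higher side (6.69% of all genes). These were the decoy receptor gene Il1r2 at 0.87 and Il18bp, which captures IL-18, at 0.58. Neither of these 2 encodes a signalling receptor. The signalling receptor genes stood at -0.033 (Il1r1), -0.081 (Il1rap), -0.21 (Il18r1) and 0.44 (Il18rap). Of the 3 other Toll-like receptors measured limma called 0, and 1 was lower at an unadjusted p under 0.05 (8% of all genes). The flagellin receptor gene Tlr5 stood at -0.25 and Tlr12 at 0.13.

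**Figure D4:**
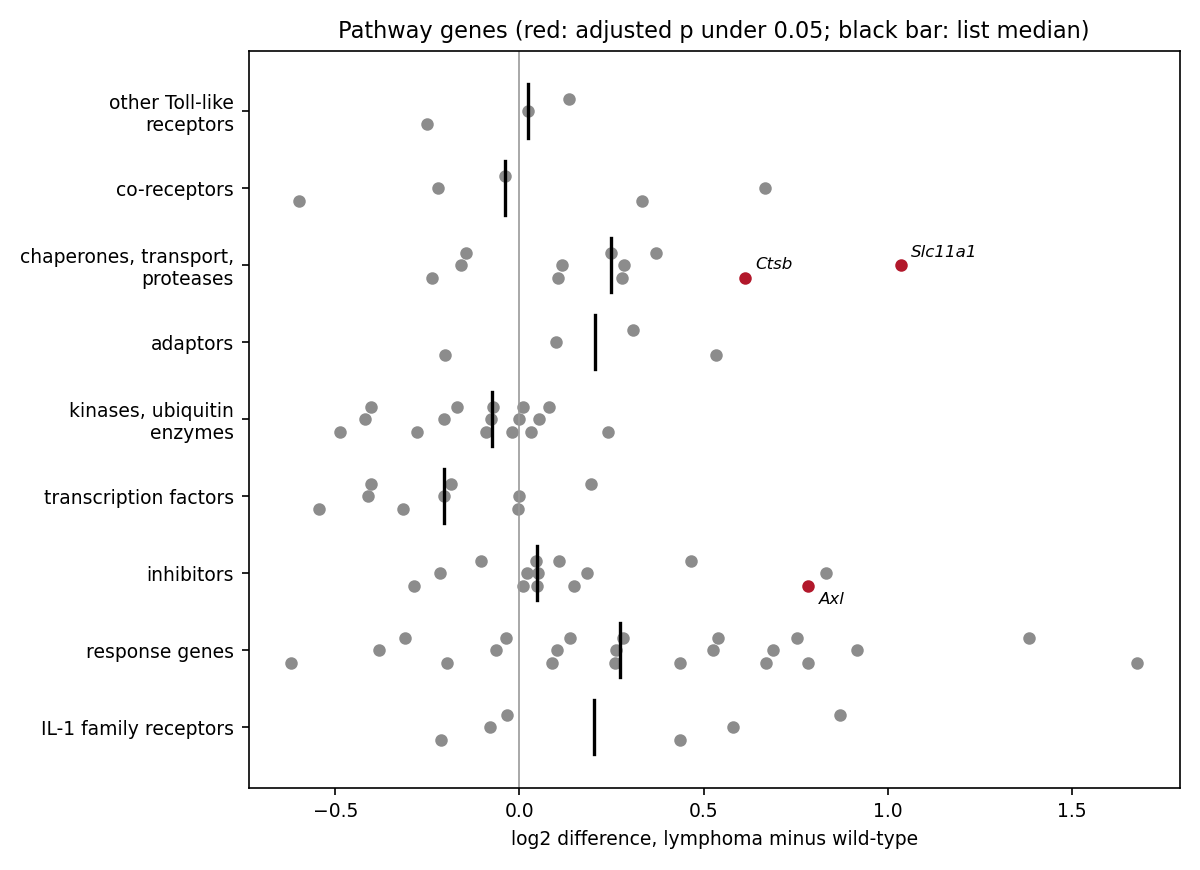
Log2 difference (lymphoma minus wild-type) of each measured gene in the 9 pathway lists, with genes called by limma in red and named, other genes in grey and the list median as a black bar; the vertical offset of points within a list has no meaning. The called genes are Slc11a1, Ctsb and Axl, and the transcription factors lie mostly left of 0.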

How the data were processed

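Frozen spleen tissue of 5 Sca1-MALT1 lymphomas and 4 wild-type spleens gave total RNA for Affymetrix arrays, per the labels' protocols. The authors deposited log2 values made with RMA, per the submitters' processing notes. The sources used here do not give the version or settings. Because the array medians spanned only 6.88 to 6.97, no further normalization was applied. Names came from the platform annotation, from the 34945 probe sets with 1 symbol. Each gene was represented by its brightest probe set (highest mean of the 9 arrays). Lymphoma was compared with wild-type by limma 3.58.1 in R 4.3.3 (lmFit, eBayes, two-sided), with Benjamini-Hochberg adjustment over all 18193 genes, or all 45037 probe sets, and no covariate or filter. The script was tested on simulated data. The genes, lists and tests were chosen with earlier results of these data known.

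All 10 genes were named. In each list up to 4 called genes were named or, with none called, the 2 with the largest difference, and for Cd14 the 2 genes with the highest Pearson r. Unc93b1, Tlr6, Ly96, Xist and the genes in the closing section were added after their values were seen, and 2 promoter motifs were shortened after a first search. Replicate numbers are not said to pair the samples. Deviations from group means correlated between -0.20 and 0.14 for same-numbered arrays and between -0.23 and 0.33 for the others. These few correlations cannot show whether the numbers pair the samples. Alternatives were other normalizations, filters, variance models, probe set rules and covariates, and leaving out arrays. The number of arrays limits the precision. Plots were made in Python 3.11.15 with matplotlib 3.10.9.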

Additional observations from a re-analysis of the deposited data

How the results depend on the processing

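The directions of 9 of the 10 genes were kept under all alternatives tried, 24 for each gene and 23 for Tlr8, which a filter on dim probe sets removed. Tlr1 turned positive with array weights (0.11) and with the replicate number as a block (0.16), and with any 1 array left out its log2 difference ranged from -0.60 to 0.18. It was positive without lymphoma 4 (0.18), lymphoma 5 (0.16), wild-type spleen 3 (0.17) or wild-type spleen 4 (0.080). Cd14 stayed called in 15 of 24 alternatives, with a log2 difference of 1.06 to 1.31, and Tlr13 was called in 3. The count of 1 called gene became 0 with limma replaced by an unequal-variance test (Cd14 adjusted p 0.188), with the 18S level as a covariate (limma adjusted p 0.122) and, as an alternative chosen after seeing the data, without lymphomas 3 and 5 (0.0588). It became 2, by adding Tlr13, with array weights and without lymphomas 1 and 2. The count of 1 called probe set became 0 in the same 3 settings, and 2 with array weights and without lymphomas 1 and 2 (by adding Tlr13) and with the Gapdh ratio as a covariate (by adding 1442827_at of Tlr4). With any 1 array left out both counts ranged from 0 to 2, and without lymphoma 1 or 4 the probe set count was 0. The replicate block gave 0 called genes (Cd14 limma adjusted p 0.16) and 0 called probe sets. It also ended the calls of Slc11a1, Ctsb and Axl (each limma adjusted p 0.172). Lymphoma 5 has no partner of its number and drops out of that fit, and whether the numbers pair the samples is not known. Of all genes 130 were called, and 10 to 328 with any 1 array left out (10 without wild-type spleen 2, 328 without lymphoma 2), 7 with the block, 42 with the 18S level, 48 without lymphomas 3 and 5, 459 with the Gapdh ratio, 486 with array weights, 601 without lymphomas 1 and 2, and 0 by the unequal-variance test. Among the pathway lists calls were gained in the transcription factors (1 with array weights), the inhibitors (2 with array weights, with the Gapdh ratio, without lymphoma 1 or 2 and without both), the IL-1 receptor family (1 with array weights, 2 without lymphomas 1 and 2) and the co-receptors (1 without lymphomas 1 and 2). The list of chaperone, transport and protease genes, with 2 calls, ranged from 0 to 3 calls with any 1 array left out. Apart from the arrays removed, the cause of these changes was not tested.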

Other observations

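Among the pathway genes that did not pass, Mertk, a receptor of the Axl family, differed by 0.83 on the log2 scale (limma adjusted p 0.0815), Acod1, the itaconate enzyme of activated macrophages, by 0.92 (0.291), and Cd40, the costimulatory receptor of B cells and dendritic cells, by -0.62 (0.2). T-cell markers ranged in their mean from 9.05 to 10.45 in the lymphomas, against 10.37 to 10.62 in the wild-type spleens.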
